A study of Bos taurus with 8 samples.

Results

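The genes of the death receptors and their adaptors were read on expression arrays of bovine granulosa cells, the cells that line the ovarian follicle and nurse the oocyte. The members were chosen by name and not by a cut on their values, though earlier results of these data were known. They were every gene probe whose symbol was FAS, TNFRSF1A, FASLG, TNFSF10, FADD, TRADD, RIPK1, TRAF2 or CFLAR. They made up 9 of the 15216 genes with a symbol and were read by 12 probes. Of these, 10 probes of 8 genes reached the mean log2 intensity of 7 needed for a test, and both probes of TNFSF10 lay below it.

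The samples came from ovaries of Holstein cattle collected at a slaughterhouse, from dominant follicles wider than 9 mm, and the labels give no drug, genotype or age. The study placed each follicle in the plateau phase, in which growth has slowed, or in the atretic phase, in which the follicle regresses, by the DNA content of its cells in flow cytometry. Cells with less DNA than a resting cell lowered a follicle's rank, so a sign of cell death was part of the definition of the atretic group. The 8 arrays each carried amplified RNA from 1 plateau and 1 atretic follicle. On the 4 arrays of slide 205 Cy5 marked the atretic RNA and on the 4 of slide 206 Cy3 did, which gave 4 pairs of follicles. Each RNA came from a single follicle, and no source used here ties the follicles to separate cows. Differences are given as log2 atretic minus log2 plateau, with the SD between the 4 pairs, and a level is a normalized log2 intensity averaged over the dyes.

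Death receptors are cell surface proteins with an intracellular death domain. When FAS is bound by its ligand FASLG, or a TRAIL receptor by TNFSF10, the adaptor FADD joins the receptor to caspase-8 and the cell can enter apoptosis, a step that CFLAR (c-FLIP) can hold back. TNFRSF1A, the main receptor of tumour necrosis factor, binds TRADD instead, and TRADD recruits RIPK1 and TRAF2 into a complex that signals through NF-kB to survival genes or, when that arm fails, to caspase-8 or to necroptosis. Granulosa cell apoptosis is the classical mark of follicular atresia, and FAS and its ligand have long been studied in that setting.

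Probe signals were read against 153 negative control spots, whose mean log2 level was 6.57 to 6.89 over the 16 array channels and whose 95th percentile was 7.02 to 7.33. The plateau follicles of pairs 3 and 2 stood apart from the others in stroma, granulosa or myeloid markers. In that of pair 3 the summed level of 9 fibroblast and stroma markers was 157811, against 2227 to 7227 in the other 3 plateau follicles and 4561 to 8828 in the atretic ones. The summed level of 8 granulosa markers was 15372 in the plateau follicle of pair 3 and 52385 in that of pair 2, against 177047 and 215979 in the other 2 and 131419 to 210055 in the atretic follicles. The summed level of 11 macrophage and myeloid markers was 8883 and 8760 in the same 2 plateau follicles, against 1538 and 2196 in the other 2 and 1928 to 4010 in the atretic ones. The summed level of 5 theca markers was 38971 in the atretic follicle of pair 1 and 26502 in the plateau follicle of pair 4. It was 3700 to 14973 in the rest. The same 2 follicles had the highest granulosa sums, 210055 and 215979. The plateau follicles of pairs 3 and 2 had the lowest sums of both lists, with theca sums of 3700 and 4665. Whether the theca list reads theca cells apart from granulosa cells was not tested. For COL1A2, a collagen of stromal cells, the level was 15.83 in the plateau follicle of pair 3 and 7.37 to 8.91 in the atretic ones. For CYP19A1, the aromatase of granulosa cells, it was 7.52 in that follicle, 7.20 in the plateau follicle of pair 2, both near the negative controls, and 8.97 to 15.87 in the other 6. The granulosa sum weighs its brightest genes most, such as INHA and INHBA. In the atretic follicles their log2 levels were 15.75 to 15.97 and 15.91 to 15.97. These lay near the top of the intensity scale, where the highest spot of any kind read 65535. The upper granulosa sums are limited by that ceiling. In the plateau follicle of pair 2, AMH, HSD17B1, INHA, INHBA, NR5A2 and CYP19A1 lay below their atretic ranges. There FSHR (9.67) and FOXL2 (7.76) lay within theirs (9.63 to 10.47 and 7.30 to 8.59). In the plateau follicle of pair 3 all 8 lay below. Each gene was read there by its brightest probe, and the probes of NR5A2 did not go the same way. Its brightest probe differed by 0.72 ± 0.92 and its dimmest by 0.39 ± 0.75. Its remaining probe, also bright, was lower in atretic follicles, at -1.27 ± 0.41 (limma, unadjusted p = 0.000757, adjusted p = 0.167). The count of member genes that passed, and the differences of FAS, TNFRSF1A, TRADD, CFLAR, LTA and TNFRSF19, are therefore also given without pairs 2 and 3. For CASP8, BID, TNFRSF12A and MAP3K5 the value of pair 3 is given, but no mean without these pairs.

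No gene of the death receptors and their adaptors passed the threshold named by the study, a fold of 1.5 at an unadjusted p of 0.05. This was 0 of 8 tested genes, where 740 of all 13065 tested genes (5.66%) passed it, 364 (2.79%) as higher and 376 (2.88%) as lower in atretic follicles. The count was also 0 without pair 3, where 4.81% of all genes passed, and without pairs 2 and 3 together (9.01%), an alternative chosen after the data were seen. It was 1 (TNFRSF1A) without pair 2, where 7.59% of all genes passed. None of the 8 genes had an unadjusted p under 0.05, and for none did the 4 atretic and the 4 plateau levels stay apart, which they did for 361 of all tested genes (2.76%). Over all probes 1381 of 34016 (4.06%) passed the study threshold and 0 (0%) an adjusted p of 0.05 in limma, where the lowest adjusted p was 0.167 and 2548 probes had an unadjusted p under 0.05. The median size of the log2 difference, without its sign, was 0.07 over the 8 genes and 0.16 over all tested genes. In bulk RNA a smaller share of cells of a type and less RNA per cell cannot be told apart, and this holds for every level given here.

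**Figure D1:**
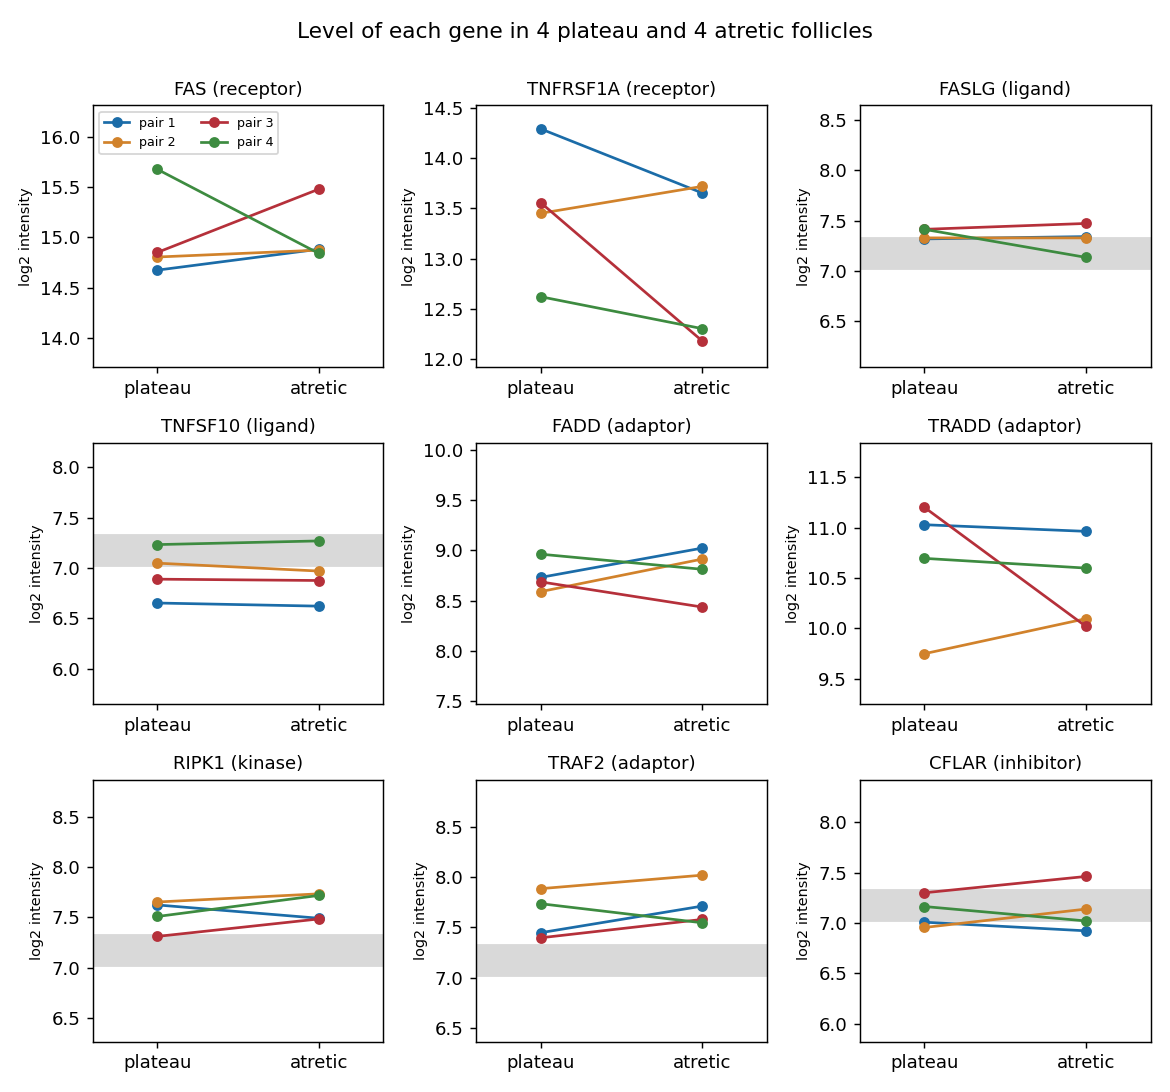
Normalized log2 intensity of the brightest probe of each of the 9 genes in the 4 plateau and 4 atretic follicles, with lines joining the follicles that shared an array. Each panel spans the same range of log2 units, and the grey band is the 95th percentile of the negative controls over the array channels (7.02 to 7.33). The lines of FAS, TNFRSF1A and TRADD run in both directions, and FASLG, TNFSF10 and CFLAR lie on or near the band.

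FAS, the receptor of Fas ligand, was far above the negative controls in every channel, with raw spot intensities of 20192 to 51465 where the highest spot of any kind read 65535. Its log2 level was 14.88, 14.87, 15.48 and 14.84 in the atretic follicles of pairs 1 to 4, and 14.67, 14.80, 14.85 and 15.68 in the plateau follicles. Thus 6 of the 8 follicles lay between 14.67 and 14.88, and the high ones were 1 atretic follicle, that of pair 3, and 1 plateau follicle, that of pair 4. The log2 difference was 0.21, 0.07, 0.63 and -0.84 in the 4 pairs, and both dye orientations gave nearly the same value for the last 2 of these, 0.64 and 0.62 in pair 3 and -0.91 and -0.76 in pair 4. The mean was 0.02 ± 0.62 (SD, n = 4 pairs), with a 95% interval of -0.62 to 0.65 (limma, adjusted p = 0.994). Without pair 3 it was -0.19 (adjusted p = 0.942), and without pairs 2 and 3 it was -0.31 (adjusted p = 0.937). FAS was therefore detected in all follicles of both groups, and the interval, as folds of 0.652 to 1.57, did not exclude a difference of about 1.5-fold in either direction.

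TNFRSF1A, the receptor that carries most of the death and survival signalling of tumour necrosis factor, had the difference of largest size among the 9 genes. Its log2 level was 13.65, 13.72, 12.18 and 12.31 in the atretic follicles and 14.29, 13.45, 13.56 and 12.62 in the plateau follicles. The groups overlapped, with the low values in the atretic follicles of pairs 3 and 4 and in the plateau follicle of pair 4. The differences were -0.64, 0.27, -1.37 and -0.32, lower in the atretic follicle of 3 of the 4 pairs and on 5 of the 8 arrays. The mean was -0.52 ± 0.68 (SD, n = 4 pairs), a level 1.43-fold higher in plateau follicles, with an interval of -1.21 to 0.18 (limma, unadjusted p = 0.116, adjusted p = 0.754). Pair 2 went the other way, and without it the difference was -0.78 (limma, unadjusted p = 0.0333, adjusted p = 0.560), past the study threshold. It also passed on slide 205 alone, at -0.76 (limma, unadjusted p = 0.0201, adjusted p = 0.285), where 9.22% of all tested genes passed. On slide 206 the TNFRSF1A difference was -0.27 (adjusted p = 0.700). Without pair 3 it was -0.23 (adjusted p = 0.918), and without pairs 2 and 3 it was -0.48 (limma, unadjusted p = 0.0636, adjusted p = 0.649).

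FASLG, the ligand of FAS that is made mainly by activated T cells and NK cells, lay close to the negative controls. It exceeded their 95th percentile in 6 of 8 atretic and 7 of 8 plateau channels. The log2 level was 7.34, 7.33, 7.47 and 7.13 in the atretic follicles and 7.32, 7.33, 7.41 and 7.41 in the plateau follicles, so that 7 of the 8 follicles fell between 7.32 and 7.47 and the atretic follicle of pair 4 was below them. The mean difference was -0.05 ± 0.15 (SD, n = 4 pairs), with an interval of -0.34 to 0.24 (limma, adjusted p = 0.954). It was 0.24 on slide 205 and -0.34 on slide 206, a gap of 0.57 between the dye orientations. For the cells that make this ligand, 7 of 13 lymphocyte and NK markers could be tested and 6 lay below the intensity limit. Their summed level was 1165 to 1768 in atretic and 1225 to 2115 in plateau follicles. The 7 differences had a median of -0.16 and ran from -0.44 to 0.05, with 5 below 0 and 0 past the study threshold. Of the 7, 2 had an unadjusted p under 0.05 in limma, against 1250 of all 13065 tested genes (9.57%). These were PTPRC, the CD45 antigen of leucocytes, at -0.44 ± 0.33 (limma, unadjusted p = 0.0366, adjusted p = 0.622) and CD3E. CD3E, a chain of the T cell receptor complex, was at -0.38 ± 0.15 (limma, unadjusted p = 0.0200, adjusted p = 0.547). Both were lower in the atretic follicle of all 4 pairs. CD3E gave 0.0054 on slide 205 and -0.76 on slide 206. The part of these cells in the FASLG signal was not tested.

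TNFSF10, the TRAIL ligand, was read at or near the level of the negative controls. The brighter of its 2 probes had log2 levels of 6.62, 6.97, 6.87 and 7.27 in the atretic and 6.65, 7.05, 6.89 and 7.23 in the plateau follicles, and was above the 95th percentile in 3 of 8 channels of each group. The dimmer probe was above it in 0 of 8 channels of either group. The differences were -0.02 ± 0.05 and 0.03 ± 0.17 (SD, n = 4 pairs), and neither probe entered the limma fit. With no filter on dim probes the brighter one had an unadjusted p of 0.822 in limma. A signal at this level bounds the transcript only from above, at about the level of the negative controls.

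FADD, the adaptor between the death domain of FAS and caspase-8, was above the negative controls in all 16 channels with both of its probes. The brighter probe had log2 levels of 9.02, 8.91, 8.44 and 8.81 in the atretic and 8.73, 8.59, 8.69 and 8.96 in the plateau follicles, and these overlapped. Its differences were 0.29 and 0.32 in pairs 1 and 2, and -0.25 and -0.15 in pairs 3 and 4. The dimmer probe gave 0.42, 0.37, -0.03 and -0.02, so that both probes were positive in pairs 1 and 2 and negative in pairs 3 and 4. The means were 0.05 ± 0.30 and 0.18 ± 0.24 (SD, n = 4 pairs), with intervals of -0.32 to 0.43 and -0.16 to 0.52 (limma, adjusted p = 0.965 and 0.827). The brighter probe averaged -0.24 on slide 205 and 0.34 on slide 206, and the dimmer 0.15 and 0.22.

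TRADD, the adaptor of TNFRSF1A, was well above the negative controls, with raw intensities of 886 to 2623. Its log2 level was 10.96, 10.10, 10.02 and 10.60 in the atretic follicles and 11.03, 9.75, 11.20 and 10.70 in the plateau follicles. The plateau group held both the lowest and the highest follicle, those of pairs 2 and 3. The differences were -0.07, 0.35, -1.18 and -0.10, with a mean of -0.25 ± 0.65 (SD, n = 4 pairs) and an interval of -0.92 to 0.42 (limma, adjusted p = 0.886). Pair 3 gave -1.42 on slide 205 and -0.95 on slide 206. Without that pair the mean was 0.06 (adjusted p = 0.975), so that the sign of the TRADD difference rested on it. Without pair 2 it was -0.45 (adjusted p = 0.804) and without pairs 2 and 3 -0.08 (adjusted p = 0.979). On all 4 pairs the mean was -0.51 on slide 205 and 0.02 on slide 206.

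RIPK1 is the kinase that decides between survival signalling and death at the TNF receptor complex, and TRAF2 is the adaptor that brings ubiquitin ligases to it. Both probes lay above the negative controls in all 16 channels, by less than 1 log2 unit in most follicles. RIPK1 had log2 levels of 7.49, 7.73, 7.49 and 7.72 in the atretic and 7.62, 7.65, 7.31 and 7.51 in the plateau follicles. It was higher in the atretic follicle of 3 of 4 pairs, on average by 0.08 ± 0.15 (SD, n = 4 pairs; interval -0.21 to 0.37; limma, adjusted p = 0.916). TRAF2 had levels of 7.71, 8.02, 7.58 and 7.55 in the atretic and 7.45, 7.88, 7.40 and 7.73 in the plateau follicles. It too was higher in the atretic follicle of 3 of 4 pairs, by 0.10 ± 0.20 (SD, n = 4 pairs; interval -0.22 to 0.41; limma, adjusted p = 0.908). The means of the 2 slides had opposite signs for both genes, 0.23 and -0.07 for RIPK1 and -0.03 and 0.23 for TRAF2.

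CFLAR, the inhibitor that competes with caspase-8 for FADD, was read by 2 dim probes. The brighter had log2 levels of 6.92, 7.14, 7.46 and 7.02 in the atretic and 7.01, 6.96, 7.30 and 7.16 in the plateau follicles, and exceeded the negative controls in 4 of 8 atretic and 3 of 8 plateau channels. The pair values of -0.09, 0.18, 0.16 and -0.14 averaged 0.03 ± 0.17 (SD, n = 4 pairs; interval -0.27 to 0.33; limma, adjusted p = 0.977). Without pair 3 the mean was -0.02, and without pairs 2 and 3 it was -0.11. The dimmer probe ranged from 6.77 to 7.36 in atretic and from 7.01 to 7.08 in plateau follicles (limma, adjusted p = 0.998). At this depth of signal a difference in CFLAR was not detectable.

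**Figure D2:**
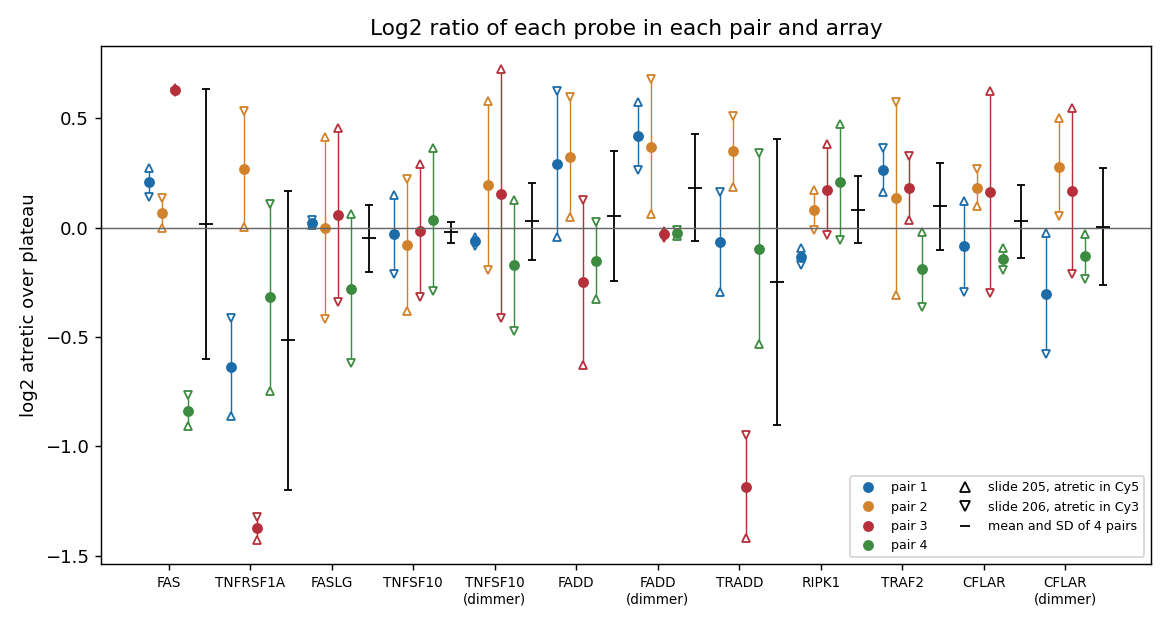
Log2 ratio of atretic over plateau for each of the 12 probes. Filled circles are the 4 pairs, open triangles the 2 arrays of each pair with the atretic RNA in Cy5 (slide 205) or Cy3 (slide 206), and black bars the mean and SD of the pairs. No probe has all 4 pairs on the same side of 0, FAS shows short lines between its arrays, and for 9 of 12 probes the 2 slides average to opposite signs. The shares of all probes for these counts are not given.

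Read together, 0 of the 12 probes had the same sign in all 4 pairs and all 12 overlapped between the groups. The groups stayed apart for only 2.76% of all tested genes. The shares of all probes with the same sign in 4 pairs, or with opposite slide means, are not given here. Those counts describe the 12 probes and do not set them apart from other genes. An exact two-sided sign-flip test over the 4 pairs cannot give a p below 0.125, and its smallest value was 0.25, for TNFRSF1A. For 5 of the 8 tested genes (62.5%) the 95% interval lay wholly within a fold of 1.5 in both directions, against 5670 of all 13065 tested genes (43.4%). These were FADD, RIPK1, TRAF2, FASLG and CFLAR. Signals near the negative controls compress a ratio, which limits what the intervals of FASLG and CFLAR, and also of RIPK1 and TRAF2, say about the transcripts. The raw spots of RIPK1 read 166 to 404 and those of TRAF2 175 to 497, where negative control spots read 72 to 372. For FAS, TNFRSF1A and TRADD the interval reached beyond that fold on at least 1 side.

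The width of an interval follows from the spread between the pairs, which was largest for TNFRSF1A, TRADD and FAS (SD 0.68, 0.65 and 0.62). As a description, the SD between the 4 pairs was set against the SD of a pair's mean estimated from its 2 arrays, taken around the mean gap between slides. It was 9.29 times as large for FAS, 5.52 times for TRADD, 4.46 times for TNFRSF1A and 3.42 times for the brighter FADD probe, and 0.162 to 2.34 times for the other 8 probes. The median ratio was 2.89 over all 13065 tested genes and 2.44 over the 8. A ratio at or above that of FAS was found for 11.4% of all tested genes, and at or above that of TNFRSF1A for 33.8%, with TRADD between them at 25.9%.

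**Figure D3:**
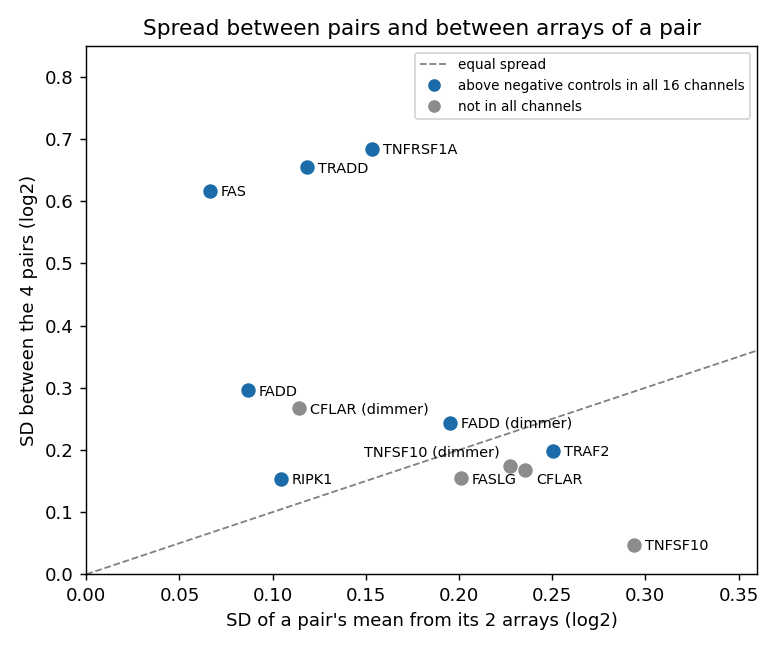
SD of the log2 ratio between the 4 pairs (vertical) against the SD of a pair's mean estimated from its 2 arrays (horizontal) for each of the 12 probes. FAS, TRADD and TNFRSF1A lie above the dashed line of equal spread, at 9.29, 5.52 and 4.46 times, where the median over all tested genes is 2.89, and 5 probes lie below it.

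In pair 3, in which the plateau follicle was the one rich in stroma markers, TNFRSF1A (-1.37) and TRADD (-1.18) had their lowest values and FAS (0.63) its highest. In the same pair the 9 stroma markers averaged -4.51 and the 8 granulosa markers 2.58, where the other pairs gave -0.33 to 1.12 and -0.66 to 1.05. The 11 macrophage and myeloid markers averaged -0.68 there and -1.13 in pair 2, against 0.43 and -0.14 in pairs 1 and 4, and the 7 lymphocyte and NK markers -0.17, against -0.28 to -0.08 in the other pairs. The part of these cells in the values of pair 3 was not tested. In pair 4 FAS was at -0.84, where the stroma markers averaged -0.06 and the granulosa markers -0.66.

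**Figure D4:**
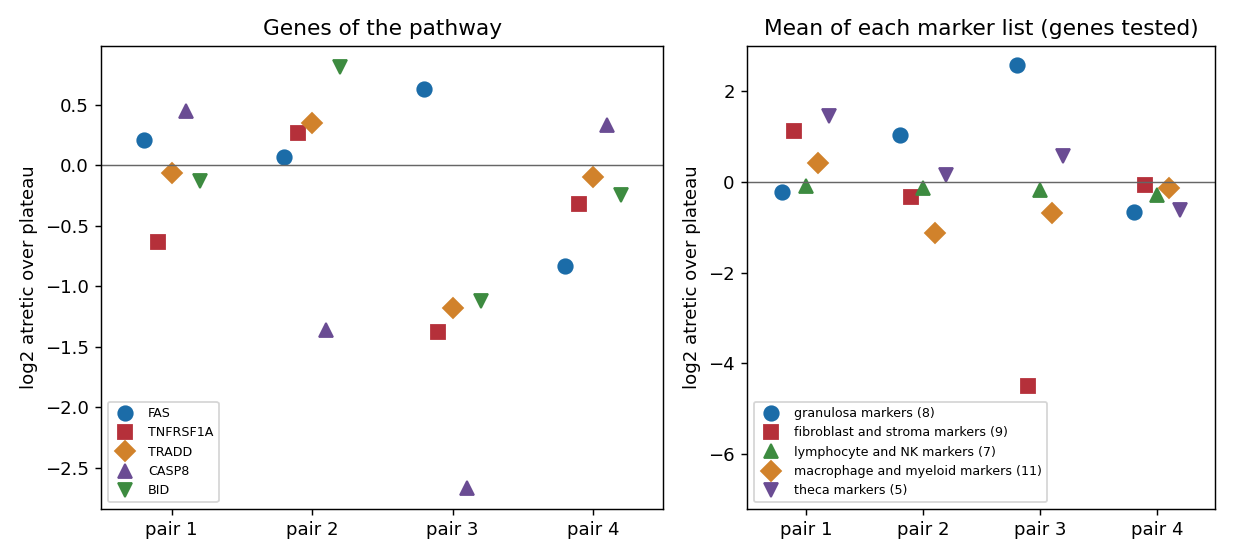
Log2 ratio of atretic over plateau in each of the 4 pairs, for FAS, TNFRSF1A, TRADD, CASP8 and BID (left) and for the mean of each of 5 marker lists (right, number of tested genes in brackets). Pair 3 holds the lowest points of TNFRSF1A, TRADD, CASP8 and BID, and in the same pair the stroma markers average -4.51 and the granulosa markers 2.58. The myeloid markers are lowest in pair 2 (-1.13).

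The rest of the pathway was read with 5 lists of 100 genes, of which 85 were on the array and 75 could be tested. Only 2 of the 75 (2.67%) passed the study threshold, 1 in each direction, against 5.66% of all genes, and the median log2 difference was 0.00. With all 8 arrays and the pair as a replicate block, 4 passed, the same 2 with MAP3K5 and TNFRSF12A, and the share of all genes that passed in that fit was 9.35%.

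Of the other ligands of the TNF family, LTA was lower in atretic follicles and the other 9 tested did not pass. LTA encodes lymphotoxin alpha, a secreted relative of tumour necrosis factor that is known from lymphocytes and binds TNFRSF1A as well. Its log2 level was 9.97, 9.68, 12.10 and 11.15 in the atretic and 12.46, 12.26, 13.39 and 12.66 in the plateau follicles, without overlap. The difference was -2.49, -2.57, -1.29 and -1.52 in the 4 pairs and below 0 on all 8 arrays. The mean was -1.97 ± 0.66 (SD, n = 4 pairs), 3.91-fold lower in atretic follicles (interval -2.64 to -1.30; limma, unadjusted p = 0.000534, adjusted p = 0.167). Without pair 3 the difference was -2.19 (adjusted p = 0.145), and without pairs 2 and 3 it still passed the study threshold (adjusted p = 0.322). With the pair as a replicate block in limma the adjusted p was 0.00130. That fit took all 8 arrays at a shared correlation of 0.436. For LTA the SD between pairs was 5.58 times that of a pair's mean from its 2 arrays. The dye swaps thus counted in part as replicates, and this p overstates the evidence. A single probe read the gene. The 7 tested lymphocyte and NK markers had the median of -0.16 given above, between -0.44 for PTPRC and 0.05 for CD4. As given above, PTPRC and CD3E had an unadjusted p under 0.05 in limma. The part of these cells in the LTA difference was not tested. TNF itself lay near the negative controls, above them in 5 of 8 atretic and 3 of 8 plateau channels, and differed by 0.04 ± 0.09 (adjusted p = 0.966).

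Among 17 tested receptors of the family, TNFRSF19 was higher in atretic follicles and the other 16 did not pass. TNFRSF19 (TROY) is a receptor without a death domain. Its log2 level was 14.05, 13.45, 13.60 and 13.66 in the atretic and 12.91, 12.66, 12.60 and 13.83 in the plateau follicles, so that the plateau follicle of pair 4 alone kept the groups from separating. The differences of 1.14, 0.79, 1.00 and -0.17 averaged 0.69 ± 0.59 (SD, n = 4 pairs), a 1.61-fold higher level (limma, unadjusted p = 0.0333, adjusted p = 0.614). Without pair 1, 2 or 3 it no longer passed, at 0.54, 0.66 and 0.59, nor without pairs 2 and 3, at 0.49. TNFRSF12A, the receptor of TWEAK, is named after its values were seen. It differed by -1.38 ± 2.05 with -4.24 in pair 3 (adjusted p = 0.772).

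None of the 30 tested adaptors and ubiquitin regulators passed. The smallest p values were those of TAB3, which links ubiquitin chains to the kinase TAK1, at 0.25 ± 0.15 (adjusted p = 0.707) and of DAXX, a FAS-binding protein, at -0.25 ± 0.22 (adjusted p = 0.746). MAP3K5, the stress kinase ASK1 that TRAF2 can activate, is likewise named after its values were seen, at 1.04 ± 1.63 with 3.32 in pair 3 (adjusted p = 0.781).

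None of the 6 tested caspase and necroptosis genes passed. CASP8, the caspase that FADD recruits, had log2 levels of 7.80, 8.50, 8.50 and 7.87 in the atretic and 7.36, 9.87, 11.16 and 7.53 in the plateau follicles. Its differences were 0.44, -1.36, -2.66 and 0.33, with a mean of -0.81 ± 1.48 (SD, n = 4 pairs; limma, adjusted p = 0.817), and the 2 highest follicles were the plateau follicles of pairs 3 and 2, those with the high summed myeloid markers. The 11 macrophage and myeloid markers averaged 0.43, -1.13, -0.68 and -0.14 in pairs 1 to 4 and the 9 stroma markers -4.51 in pair 3, and the part of these cells in the CASP8 values was not tested. BID, the protein that caspase-8 cuts to reach the mitochondria, gave -0.17 ± 0.79 with -1.12 in pair 3 (adjusted p = 0.939). DFFA, the inhibitor of the nuclease that cuts DNA in dying cells, was higher in the atretic follicle of 4 of 4 pairs, at 0.25 ± 0.13, and did not pass (limma, unadjusted p = 0.0685, adjusted p = 0.704). RIPK3, the kinase of necroptosis, gave -0.08 ± 0.17 (adjusted p = 0.924), and its target MLKL, at 0.09 ± 0.31, was too dim for a test.

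None of the 12 genes of the NF-kB arm passed either. NFKB1, which encodes the p50 subunit, had log2 levels of 10.55, 10.23, 10.54 and 10.14 in the atretic and 10.92, 10.57, 10.93 and 10.84 in the plateau follicles, without overlap. It was lower in all 4 pairs and on all 8 arrays, at -0.45 ± 0.17 (SD, n = 4 pairs), a difference under the fold of 1.5 (limma, unadjusted p = 0.0112, adjusted p = 0.468). IKBKB, the kinase that frees NF-kB from its inhibitor, gave -0.38 ± 0.30 (limma, unadjusted p = 0.0509, adjusted p = 0.670).

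**Figure D5:**
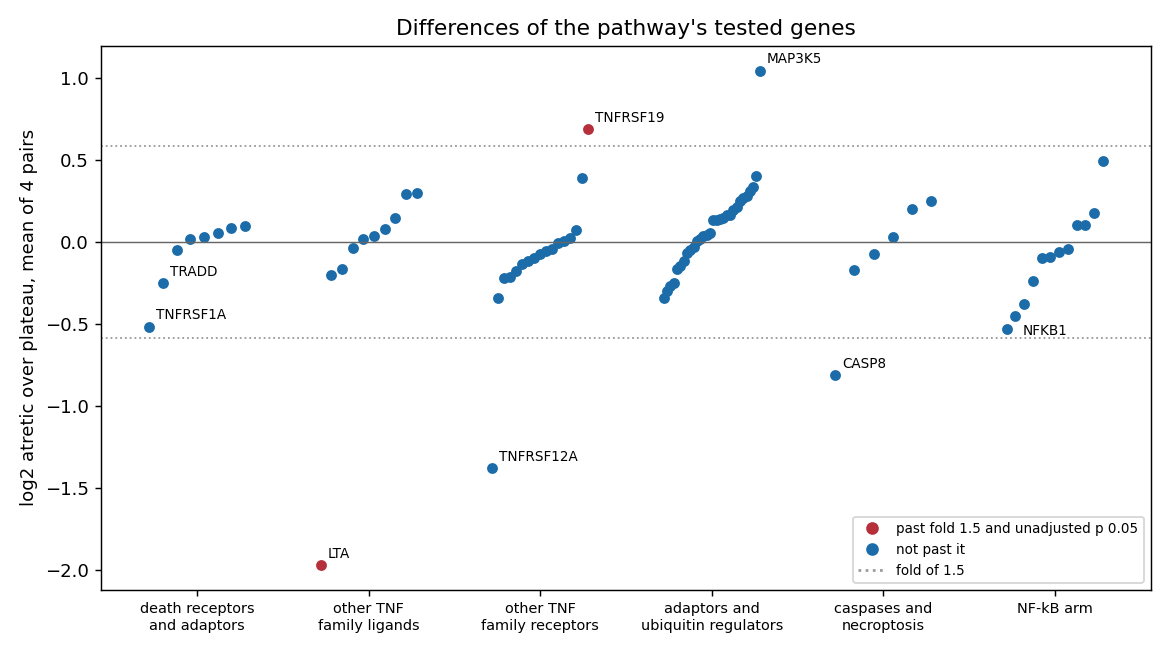
Mean log2 ratio of atretic over plateau over 4 pairs for the tested genes of the death receptors and adaptors and of the 5 other lists of the pathway, sorted within each list. Red points passed a fold of 1.5 (dotted lines) at an unadjusted p of 0.05. LTA (-1.97) and TNFRSF19 (0.69) are the 2 red points, and the 8 tested death receptor and adaptor genes lie between -0.52 and 0.10.

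For each tested gene the array was searched for the gene outside the members whose level followed it most closely over the 8 follicles, which share arrays in pairs. TNFRSF1A was followed by SEMA5A, a semaphorin, at Pearson r = 0.999, with the same rank order in all 8 follicles, although SEMA5A spanned 0.58 log2 units where TNFRSF1A spanned 2.11. TRADD was followed by CRIP1 at 0.986, TRAF2 by NOSIP at 0.984, FADD by SPG7 at 0.968 and FAS by PAN3 at 0.945. RIPK1 and FASLG were followed at 0.960 by PHF2 and CRCP, and CFLAR by FAM167A at 0.954. Each of these is the highest of 13065 genes over 8 points and is given as a description. Among the members themselves, r ranged from -0.69 to 0.66. FAS and TNFRSF1A, the 2 receptors, stood at -0.69, and TNFRSF1A and its adaptor TRADD at 0.33.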

How the data were processed

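The authors amplified RNA of granulosa cells, hybridised it to EmbryoGENE 2-colour arrays, scanned it with the gain set per array and deposited, for each spot and channel, a median intensity and local background from Array-Pro Analyzer 6.4. The authors also deposited log2 ratios of Cy5 over Cy3, made in FlexArray 1.6.1 by background subtraction, loess and quantile normalization. Those steps applied here to the deposited intensities returned each column at r = 1.00, which settled its direction. Column medians were -0.029 to -0.005. The genome build is not given in the sources used here.

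Here the normexp method (offset 50) was followed by loess on each array (span 0.3) and by quantile normalization. Controls and the 7 to 35 spots per array that image analysis had marked got weight 0 in the loess. Median spot intensities were 162 to 283 in Cy5 and 205 to 374 in Cy3, with local backgrounds of 39 to 71 and 21 to 31. Precision is limited by having 4 pairs. Equal Area numbers on the 2 slides correlated at 0.759 to 0.865 in their deviations from the slide mean, so arrays of equal number were averaged into 4 pairs. Unequal numbers gave -0.487 to -0.0327. Taking out the slide mean pushes these below 0 when the equal ones are positive, so their sign adds nothing. The pairing comes from the hybridisation, not from an animal, and slide and dye cannot be told apart.

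Of 43794 gene probes, 21790 had 1 symbol in the platform annotation, of which 1524 were updated through gene records. Probes whose mean log2 intensity reached 7 (34016) were fitted with limma's lmFit and eBayes. Benjamini-Hochberg adjustment ran over all of them, and the brightest probe stood for its gene. Named were all members, the genes of each pathway list past the study threshold (up to 4, or otherwise the 2 of smallest p), TNF, CASP8, BID, RIPK3 and MLKL in any case, chosen cell markers and the gene most like each member. The members and lists were chosen with earlier results of these data known. The steps were tested on simulated data. Alternatives changed background correction, normalization, the filter on dim probes, marked spots, source of values, variance model, pairing, dye, slide, the probe of a gene, the fold and each pair. Leaving out pairs 2 and 3 together was added after the data were seen. Versions were limma 3.58.1 and statmod 1.5.0 in R 4.3.3, with figures drawn in matplotlib 3.10.9.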

Additional observations from a re-analysis of the deposited data

Results flagged for a closer look

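In 4 of 60 groups of 4 values examined (log2 ratios, atretic levels and plateau levels of the 12 probes and of 8 other named genes), 1 follicle or pair lay far from the other 3, where chance gives about 3. FAS was at 15.48 in the atretic follicle of pair 3, against 14.84 to 14.88 in the other 3 atretic follicles. The dimmer FADD probe was at 7.46 in the same follicle, against 8.01 to 8.12. MLKL, too dim for a test, was at 7.33 there, against 6.79 to 6.88. The log2 ratio of NFKB1 was -0.70 in pair 4, against -0.39 to -0.34 in the other pairs.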

How the results depend on the processing

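Over 158 values of the 9 genes under alternative settings, 135 kept their direction and their side of the study threshold, 21 changed sign and 2, both of TNFRSF1A, passed it. The count of these genes past the threshold was 0 under every alternative except slide 205 alone (1) and the runs that left out 1 pair (0 to 1, with TNFRSF1A passing without pair 2). Of all tested genes, 9.22% passed on slide 205 alone and 4.81% to 7.59% with 1 pair left out. Over all alternatives that share was 4.46% to 9.57%. The sign changes were to -0.0433 for CFLAR and 0.00381 for TNFSF10 without background correction, to -0.0500 for FAS with loess alone, to 0.24 for FASLG, -0.24 for FADD, 0.11 for TNFSF10 and -0.0309 for TRAF2 on slide 205, and to 0.0163 for TRADD, -0.13 for CFLAR and -0.0673 for RIPK1 on slide 206. Without pairs 2 and 3, chosen after seeing the data, FAS changed to -0.31, CFLAR to -0.11 and TNFSF10 to 0.00275. With 1 pair left out FAS ranged from -0.19 to 0.30, FADD from -0.0364 to 0.155, CFLAR from -0.0222 to 0.0866, TRADD from -0.448 to 0.0619 and FASLG from -0.0852 to 0.0270. Probes past the threshold numbered 1381, 2203 with the pair as a replicate block (correlation 0.436), 2185 with a dye term as well, 2695 and 2651 on slides 205 and 206 alone, 2548 by p alone, 2212 without pairs 2 and 3 and 1280 to 1802 with 1 pair left out. Pathway genes numbered 2, and 1 with loess alone, where 5.29% of all tested genes passed. They numbered 4 in either replicate block fit (9.35% and 9.24% of all), 4 on slide 206 (9.07%) and 3 on slide 205 (9.22%). By p alone they numbered 3 (9.57%), and with 1 pair left out 2 to 3. LTA passed under all 18 alternatives, at -2.19 to -1.77. TNFRSF19 fell below the threshold with loess alone (0.54), on slide 205 (0.44) and in the leave-out settings named in the report (0.49 to 0.66). The cause of these changes was not tested. FASLG, TNFSF10 and CFLAR were read near the negative controls, which limits what any setting can show of them.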
